A study of Mus musculus with 39 samples.

Results

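8 genes of the complement system were followed across sorted lung cells: C1qa, C1qb, C1qc, C4b, C3, Cfb, Cfp and C3ar1, which make up 8 of the 43430 genes counted. They were taken by symbol, and each symbol matched 1 Ensembl identifier. All 8 passed the filter on low counts in every fit, and all 8 are described. The libraries came from C57BL/6J mice and number 39. Of these, 20 are lung monocytes of naive mice and 19 are alveolar macrophages with low surface Siglec F, derived from monocytes, of mice given bleomycin, which injures the lung and leads to fibrosis. Either age group was given saline or ISRIB, a compound that counters the integrated stress response, by which stressed cells slow protein synthesis. Young mice were 8 to 12 weeks old and old mice over 18 months by the labels of the samples, whereas the text of the series has 3 to 5 months for young and 18 to 24 months for old mice. By the series text, daily injections of ISRIB or vehicle began on day 7 and cells were taken on day 21 after bleomycin. That text does not set the monocytes apart, but their labels call the mice naive, and the labels were followed. The 8 groups are young saline, young ISRIB, old saline and old ISRIB monocytes, and the same 4 of macrophages, with 5 libraries each except young ISRIB macrophages, which have 4. Every macrophage library is from bleomycin-treated mice and every monocyte library from naive mice, so cell type and injury cannot be told apart. The labels number the replicates but do not say whether each is a separate animal or a pool, so p-values measure the spread between these libraries.

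Complement is a cascade of plasma and cell-derived proteins that marks targets for uptake and recruits leukocytes. C1q, built from the A, B and C chains that C1qa, C1qb and C1qc encode, binds antibody complexes and dying cells and starts the classical pathway, which cleaves C4 and then C3. Factor B and properdin, the products of Cfb and Cfp, form and stabilise the alternative pathway convertase that cleaves more C3. The fragment C3a signals through the receptor encoded by C3ar1. Unlike most complement proteins, which the liver supplies, C1q is made mainly by macrophages and dendritic cells, and properdin is made by leukocytes.

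In GRCm38 (mm10), annotated by GENCODE vM21, all 8 genes are protein coding and lie on the minus strand. The C1q genes sit side by side on chromosome 4: C1qb at chr4:136880129-136886187, C1qc at chr4:136889804-136893065 and C1qa at chr4:136895917-136898803. C4b (chr17:34728380-34743882), Cfb (chr17:34856374-34862518) and C3 (chr17:57203970-57228136) are on chromosome 17, C3ar1 (chr6:122847138-122856161) is on chromosome 6 and Cfp (chrX:20925454-20931555) is on X. C4b has a near-identical copy, C4a, whose group means were 0.396 to 1.69 CPM (a gene's counts scaled to a common library size). How reads that fit both copies were counted is not given in the sources used here, so values of C4b are uncertain to that extent. Cfb shares exon bases with Gm20547 on the same strand, which held 0 counts in all libraries, so reads from shared exons may be missing from Cfb.

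RefSeq (GRCm38.p6) gives a start-site window, 250 bases before to 50 after the start, for 5 of the 8 genes: C1qb, C1qc, C3ar1, C3 and Cfp. Those of C1qb and C1qc, which moved together in the data, and of C3, which moved the other way with age, follow on the gene's strand. Capitals mark GAGGAA, the core bound by the myeloid factor PU.1, or its reverse complement TTCCTC in the windows of C1qb (chr4:136886151-136886450) and C1qc (chr4:136892865-136893164). In the window of C3 (chr17:57228087-57228386) they mark TTGCNNAA, a core of C/EBP sites.
C1qb: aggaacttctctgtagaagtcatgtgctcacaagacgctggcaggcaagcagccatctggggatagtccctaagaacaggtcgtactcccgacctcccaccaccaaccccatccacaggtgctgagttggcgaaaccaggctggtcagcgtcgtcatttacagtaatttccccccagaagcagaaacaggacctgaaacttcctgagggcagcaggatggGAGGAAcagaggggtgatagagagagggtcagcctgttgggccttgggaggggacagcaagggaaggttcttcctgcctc
C1qc: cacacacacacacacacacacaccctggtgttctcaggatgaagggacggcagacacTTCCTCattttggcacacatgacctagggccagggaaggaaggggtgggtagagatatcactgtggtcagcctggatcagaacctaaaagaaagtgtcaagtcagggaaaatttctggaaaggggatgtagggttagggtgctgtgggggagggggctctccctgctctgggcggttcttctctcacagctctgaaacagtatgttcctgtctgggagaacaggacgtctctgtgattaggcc
C3: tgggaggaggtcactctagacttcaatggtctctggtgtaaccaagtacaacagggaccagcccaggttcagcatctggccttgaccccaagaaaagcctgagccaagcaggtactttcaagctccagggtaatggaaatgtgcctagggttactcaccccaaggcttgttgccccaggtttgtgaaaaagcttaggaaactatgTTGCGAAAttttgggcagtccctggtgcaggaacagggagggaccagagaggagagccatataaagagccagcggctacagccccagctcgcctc
The C1qb match begins 30 bases before the start site, the C1qc match 193 bases before it and the C3 match 45 bases before it. Searched on both strands, GAGGAA was in 3 of the 5 windows (C1qb, C1qc and Cfp) and in 28.3% of 32851 such windows of all genes. TTGCNNAA was in 1 of 5 (C3) and in 10.8% of all windows. TGCTGA, a core bound by Maf factors, was in C1qb, C3ar1 and C3, against 19.5% of all windows. No member window held GAAANNGAA, a core of interferon response elements found in 8.6% of windows, or GGGANTTCC, a core of NF-kB sites found in 1.7%. These are matches of letters in short windows and say nothing of binding.

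Libraries held 4595331 to 16056708 counts with a median of 8628240. The shallowest, young saline monocyte replicate 4, also had the fewest genes with a count, 12324 against up to 17313. The sorts matched their labels by defining markers. Siglecf was 45.5 to 152 CPM in macrophage groups and at most 1.6 CPM in monocytes, and Ly6c2, a marker of classical monocytes, was 271 to 677 CPM in monocytes and at most 7.37 CPM in macrophages. Other marker lists moved with the macrophage groups. The summed level of 8 B cell and plasma cell markers was 6.42 to 29.2 CPM in young saline, 7.41 to 22.8 CPM in young ISRIB, 22.2 to 415 CPM in old saline and 149 to 576 CPM in old ISRIB macrophages. The 9 markers of mature alveolar macrophages summed to 2230 to 2383, 2531 to 2784, 2573 to 2804 and 2747 to 3127 CPM in the same order. Itgax, a marker on that list and also a complement receptor gene, made up most of the sum in young saline macrophages, by its level given below. The 5 markers of classical monocytes summed to 301 to 527, 190 to 362, 121 to 248 and 104 to 207 CPM. In bulk libraries such as these, fewer cells of a type and less RNA per cell cannot be told apart. The part of these lists in the differences below was not tested unless a value is given.

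**Figure D1:**
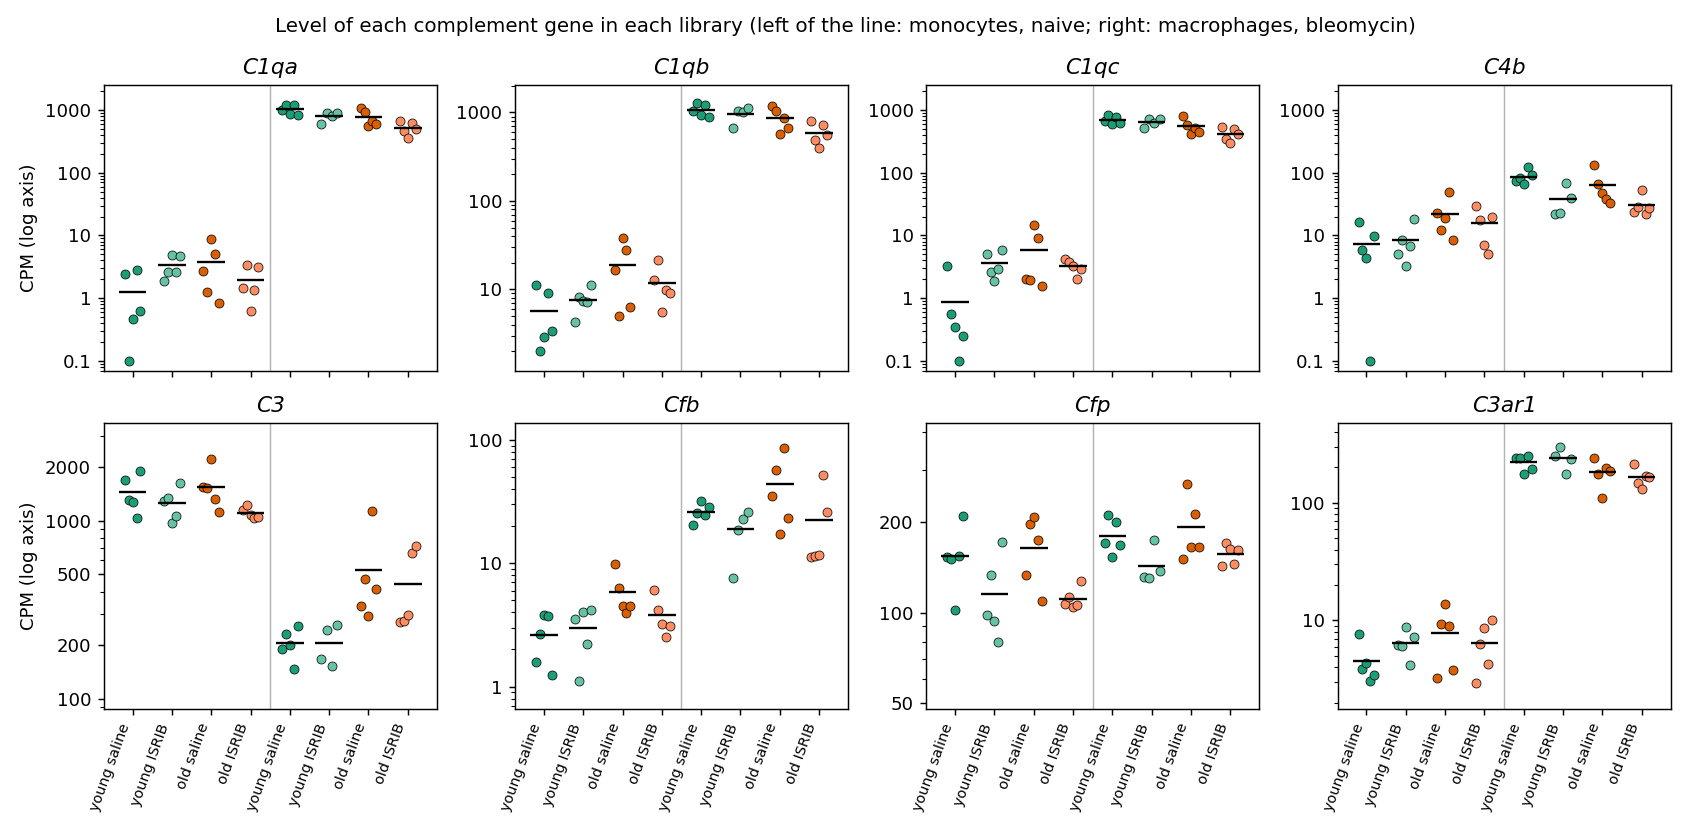
Level of each gene in each library, in CPM scaled by TMM within cell type, on log axes that differ between panels. Each point is 1 library, horizontal bars are group means, values of 0 are drawn at 0.1 CPM, and monocytes are left and macrophages right of the vertical line. The C1q chains and C3ar1 were high in all 19 macrophage libraries and low in all 20 monocyte libraries, and C3 was the other way round except in 1 old saline macrophage library at 1140 CPM.

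Macrophages and monocytes carried different complement transcripts. The C1q chains, C3ar1 and Cfb were higher in macrophages and C3 was higher in monocytes in all 4 pairs of groups. C4b was higher in macrophages in 3 of the 4 pairs, and Cfp, the gene of properdin, in 1. Per kilobase of exon, the most abundant members in young saline macrophages were C1qb at 986 ± 155 CPM per kb and C1qa at 977 ± 170 (SD, n = 5), which overlapped. C1qc followed at 361 ± 53.1 CPM per kb, then Cfp at 104 ± 13.8 and C3ar1 at 51.0 ± 8.02. C3 was at 39.7 ± 8.07, C4b at 15.3 ± 4.0 and Cfb at 9.25 ± 1.56 (SD, n = 5). The order depends on the length used, which merges all annotated exons: 1931 bases for C1qc, 1088 for C1qb and 1040 for C1qa. Without division by length these 3 were at 696, 1073 and 1017 CPM. In young saline monocytes the order began with C3 at 280 ± 67.7 CPM per kb and Cfp at 88.8 ± 22.2, and the next, C1qb, was at 5.25 ± 3.82 (SD, n = 5).

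C1qa, the A chain, was at 1007, 1182, 860, 1208 and 826 CPM in young saline macrophages and at 2.43, 0.00, 0.460, 2.83 and 0.619 CPM in young saline monocytes. These monocyte levels rest on 23, 0, 4, 13 and 5 counts. The highest of the 20 monocyte libraries was 8.89 CPM, and the lowest of the 19 macrophage libraries was 355 CPM, so the cell types did not overlap. C1qa was 921-fold higher in macrophages of young saline mice (log2 9.85 ± 0.48 SE, adjusted p = 1.96e-20; edgeR quasi-likelihood test with Benjamini-Hochberg adjustment over 13587 genes, as for the other contrasts between cell types). It was 250-fold higher in young ISRIB, 212-fold in old saline and 269-fold in old ISRIB mice, each with an adjusted p of 4.69e-19 or less. The B chain gene C1qb was 203-, 134-, 48.9- and 52.3-fold higher in the same order (young saline, young ISRIB, old saline, old ISRIB), and the C chain gene C1qc was 713-, 185-, 98.6- and 134-fold higher. The young saline folds are imprecise, since C1qc had 31, 5, 3, 0 and 2 counts in those monocyte libraries. Without young saline monocyte replicate 1 the log2 difference was 11.07 ± 0.57 SE for C1qc, against 9.48 ± 0.50 with it, and 10.46 ± 0.54 for C1qa; with limma voom it was 10.39 and 10.71. In old saline mice that of C1qc was 7.24 without monocyte replicate 3, against 6.62 with it. C3ar1, the C3a receptor, was at 109 to 297 CPM in macrophages and at 2.96 to 13.7 CPM in monocytes, and was 49.7-, 38.9-, 24.5- and 27.5-fold higher.

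C3, the central component, ran in the opposite direction. Its levels in young saline monocytes were 1684, 1309, 1269, 1038 and 1906 CPM, and in young saline macrophages 191, 230, 199, 146 and 255 CPM. It was 6.69-fold lower in macrophages of young saline mice (log2 -2.74 ± 0.29 SE, adjusted p = 1.85e-10) and 5.77-fold lower in young ISRIB mice (log2 -2.53 ± 0.32 SE). In old mice the gap was smaller, 2.74-fold in saline (log2 -1.45 ± 0.28 SE) and 2.36-fold in ISRIB mice (log2 -1.24 ± 0.28 SE). In old saline mice macrophage replicate 4, at 1140 CPM, was above the lowest monocyte library, at 1122 CPM. This overlap depends on the scaling within cell type. By library totals the same 2 libraries were at 1084 and 1131 CPM and the groups did not overlap.

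C4b, which supplies the C4 cleaved in the classical pathway, was 11.9-fold higher in macrophages of young saline mice (log2 3.58 ± 0.54 SE, adjusted p = 3.75e-07), 4.84-fold in young ISRIB and 3.02-fold in old saline mice. In old ISRIB mice it did not pass the test (log2 1.04 ± 0.50 SE, adjusted p = 0.0699), although limma voom called it (adjusted p = 0.0322). The libraries of the 2 cell types overlapped for C4b in old saline and in old ISRIB mice. With limma voom the log2 difference in young saline mice was 4.29. Young saline monocyte replicate 4, the shallowest library, had no C4b count where the other 4 of its group had 38 to 155. Cfb, the protease of the alternative pathway, was 6.10- to 10.8-fold higher in macrophages over the 4 pairs of groups. Cfp was at 79.6 to 210 CPM in monocytes and 130 to 268 CPM in macrophages. It passed the test in old ISRIB mice only (log2 0.57 ± 0.18 SE, adjusted p = 0.00586), and its log2 differences elsewhere were 0.31, 0.32 and 0.39 with standard errors of 0.18 to 0.19. Whether the Cfp difference itself differed between these pairs was not tested.

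Counted over the 8 members, 7 were called in each pair, 6 higher and 1 lower in macrophages. In young saline mice 60.0% of all genes tested were called, 31% higher and 29% lower. The shares were 57.0% (29.7% and 27.3%) in old saline, 57.3% (29.5% and 27.8%) in young ISRIB and 59.4% (30.8% and 28.6%) in old ISRIB mice. The libraries of the 2 cell types did not overlap for 7 members in young saline mice, where that held for 40.2% of genes. It held for 5 in old saline (43.6%), 7 in young ISRIB (46.6%) and 7 in old ISRIB mice (48.1%). Overlap was judged in CPM scaled within cell type. By library totals C3 did not overlap in old saline mice either, and the shares of all genes by library totals were not computed. The median log2 difference of the members was 4.61, 3.80, 3.99 and 3.69 for young saline, old saline, young ISRIB and old ISRIB mice, where that of all genes was 0.01, 0.00, -0.01 and 0.01.

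**Figure D2:**
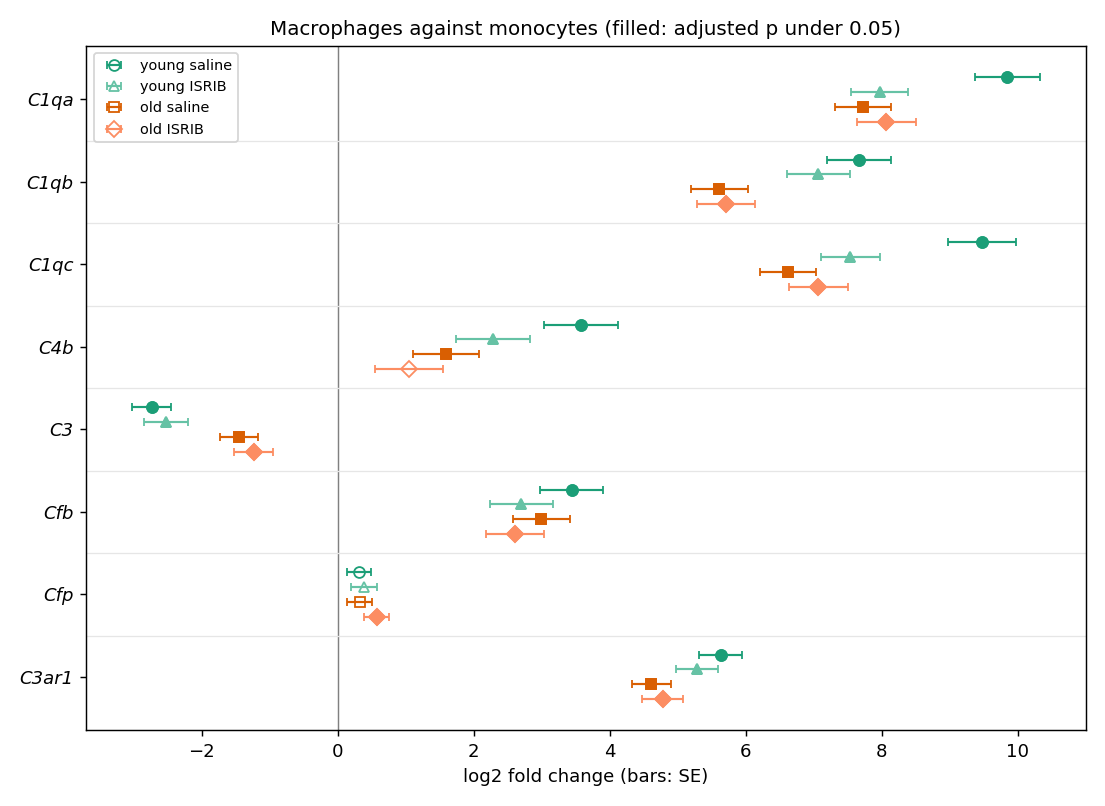
Log2 fold change of each gene in macrophages against monocytes, with bars of 1 SE, for the 4 combinations of age and treatment. Filled symbols passed an adjusted p under 0.05; C1qa, from 7.73 to 9.85, lay farthest to the right, and C3, from -2.74 to -1.24, was the 1 gene on the left.

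Of 46 other complement genes, all of which were in the table, 23 were abundant enough to test across the cell types. In young saline mice 11 were higher in macrophages, 4 were lower and 8 were not called, and the other 3 pairs gave 10 to 11 higher and 4 to 5 lower. Genes higher in macrophages included C1ra, a protease that C1q activates (39.5 ± 10.1 against 2.88 ± 1.41 CPM; SD, n = 5), C5ar1, the C5a receptor (233 ± 42.5 against 49.1 ± 16.8 CPM), and Itgax, a chain of complement receptor 4 (1767 ± 78.7 against 30.8 ± 21.3 CPM). Lower ones included Itgam, a chain of complement receptor 3 (170 ± 53.5 against 1292 ± 394 CPM).

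With age, C3 rose in macrophages and the C1q chains fell. Old saline macrophages held 331, 469, 292, 1140 and 411 CPM of C3, all above the young saline values of 146 to 255 CPM. Old ISRIB macrophages held 268, 274, 294, 660 and 721 CPM, again all above the young ISRIB values of 167, 243, 153 and 260 CPM. C3 was 2.58-fold higher with age in saline mice (log2 1.37 ± 0.31 SE, adjusted p = 0.0255; edgeR, 12171 genes tested) and 2.15-fold in ISRIB mice (log2 1.11 ± 0.34 SE), where it did not pass the test (adjusted p = 0.121). In saline mice it was the only member of the 8 to be called, where 1.16% of all genes were called. In ISRIB mice none was, against 0.937%, and DESeq2 and limma voom also called none there. An unadjusted p under 0.05 in ISRIB mice was found for 5 members and for 1485 of 12171 genes. C3 was also the only member whose young and old libraries did not overlap, in saline mice (2.85% of all genes) and in ISRIB mice (4.87%).

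The saline call of C3 lost the threshold with limma voom (adjusted p = 0.0666) and when any 1 of 6 libraries was left out, namely young saline replicates 1, 2, 3 or 4 or old saline replicates 4 or 5, with adjusted p up to 0.0991. Averaged over saline and ISRIB, C3 rose 2.36-fold (log2 1.24 ± 0.23 SE, adjusted p = 0.00178) and stayed past the threshold with each of the 19 libraries left out (adjusted p at most 0.00548). Across the 19 macrophage libraries, C3 had a Pearson r of 0.66 with the mature alveolar macrophage list and -0.73 with the classical monocyte list. About the group means these were 0.66 and -0.53. Both lists moved with age as given above. Other lists included epithelium (-0.63, and -0.64 about the group means) and T and NK cells (0.35 and -0.63). Fibroblasts (0.56 and 0.30) and dendritic cells (0.54 and -0.15) were further ones. The 10 epithelial markers summed to 72.9 to 124, 68.0 to 97.3, 51.8 to 86.2 and 65.5 to 109 CPM in the group order used above. The part of these lists in the C3 values was not tested.

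The C1q chains fell together with age when saline and ISRIB were averaged. C1qa was at 1076, 911, 549, 670 and 592 CPM in old saline macrophages, against 826 to 1208 CPM in young saline. It was at 662, 464, 355, 622 and 501 CPM in old ISRIB macrophages, against 597, 893, 811 and 890 CPM in young ISRIB. In old saline mice 2 libraries, replicates 1 and 2, lay within the young range, and 2 old ISRIB libraries, replicates 1 and 4, lay above the lowest young ISRIB library. The fall was 1.43-fold for C1qa (log2 -0.52 ± 0.13 SE, adjusted p = 0.0154), 1.42-fold for C1qb (log2 -0.51 ± 0.13 SE, adjusted p = 0.0274) and 1.40-fold for C1qc (log2 -0.48 ± 0.12 SE, adjusted p = 0.0150). In saline mice alone the 3 log2 changes were -0.42, -0.31 and -0.34, and in ISRIB mice alone -0.62, -0.70 and -0.62, none past the threshold. C3ar1 had a log2 change of -0.40 ± 0.12 SE with an adjusted p of 0.0502.

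Averaged over treatment, 4 of the 8 members were called, 1 higher and 3 lower, where 4.86% of all genes were called, 3.12% higher and 1.74% lower. The C1q genes share a locus and were correlated, so they are not independent of each other. The calls of the C1q chains were lost when all 39 libraries shared 1 fit (adjusted p = 0.237, 0.350 and 0.325 for C1qa, C1qb and C1qc). They were also lost when the 3 macrophage libraries highest in B cell and plasma cell markers, old saline replicate 5 and old ISRIB replicates 3 and 5, were left out (log2 -0.40, -0.38 and -0.38, adjusted p = 0.117, 0.177 and 0.113), and C3 was then the 1 member called. These 3 libraries were chosen after seeing the data, and their C1qa was at 592, 355 and 501 CPM. Those values were below the means of their groups, 760 CPM in old saline and 521 CPM in old ISRIB macrophages. Leaving the 3 libraries out thus removes such values from the old groups only, so this loss cannot show a part of B cells. C1qb alone lost its call without any 1 of 8 libraries: young saline replicates 2 or 4, young ISRIB replicates 2, 3 or 4, old saline replicate 5 or old ISRIB replicates 2 or 5 (adjusted p up to 0.068). Over the 19 libraries r with the summed B cell and plasma cell markers was -0.74 to -0.76 for the 3 chains, and -0.40 to -0.50 about the group means. For C1qa, r with a mesothelial list of 5 markers was -0.83, and -0.65 about the group means; of that list Upk3b and Wt1 were at 0 in every macrophage library and Krt19, an epithelial and mesothelial keratin, made up nearly the whole sum, at 12.0 to 43.9 CPM in young saline and 74.0 to 182 CPM in old ISRIB macrophages. Other lists moved with the chains as closely. Their r with the 3 chains was -0.71 to -0.75 for T and NK cells, -0.67 to -0.69 for dendritic cells, -0.67 to -0.76 for mature alveolar macrophages, 0.67 to 0.73 for classical monocytes and 0.71 to 0.82 for nonclassical monocytes (0.42 to 0.57 about the group means). The 7 T and NK cell markers summed to 0.898 to 3.28 CPM in young saline, 1.97 to 3.91 in young ISRIB, 5.28 to 10.1 in old saline and 3.66 to 18.5 CPM in old ISRIB macrophages, with Ncr1 at 0 in both young groups. The 7 dendritic cell markers summed to 9.66 to 13.3, 7.03 to 13.8, 16.1 to 27 and 21.6 to 31.6 CPM in that order, and the 5 nonclassical monocyte markers to 294 to 374, 167 to 308, 234 to 356 and 181 to 215 CPM. The 7 endothelial markers, at 0.770 to 4.14 CPM in young saline and 5.80 to 15.9 CPM in old saline macrophages, had r of -0.25 to -0.28 with the chains and 0.54 with C3. The part of these lists in the C1q values was not tested. C4b, Cfb and Cfp had log2 changes of -0.37 ± 0.24, 0.49 ± 0.30 and 0.11 ± 0.09 SE with age, none called.

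Of the 20 other complement genes tested in macrophages, 18 were not called for age in saline mice, where 1.16% of all genes were called. Averaged over treatment, 18 were again not called, against 4.86% of all genes called. In both, 1 gene was higher and 1 lower with age. In ISRIB mice none of the 20 was called, against 0.937%. Cd93, which encodes a surface receptor once described as a receptor for C1q, was at 139 ± 28.4 CPM in young saline and 236 ± 32.8 CPM in old saline macrophages (SD, n = 5). Averaged over treatment, it rose by 0.61 ± 0.13 SE on the log2 scale (adjusted p = 0.00444).

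**Figure D3:**
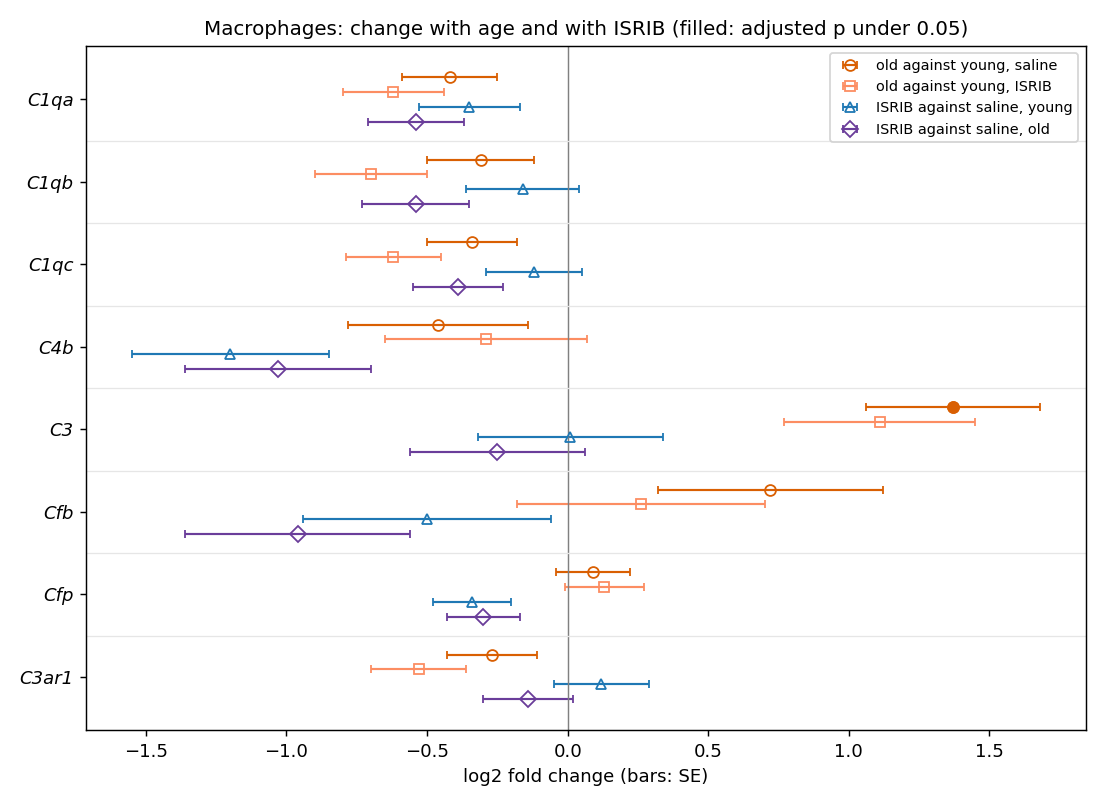
Log2 fold change of each gene in macrophages with age and with ISRIB, with bars of 1 SE; filled symbols passed an adjusted p under 0.05. C3 lay to the right for age in both treatments (1.37 and 1.11) and near 0 for ISRIB, C4b lay at -1.20 and -1.03 for ISRIB, and the C1q chains lay left of 0 in all 4 comparisons.

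Averaged over age, C4b fell with ISRIB in macrophages. The ISRIB comparisons use the same 4 groups of libraries as the age comparisons, so the 2 sets are not independent. C4b was at 73.8, 81.1, 65.1, 124 and 90.4 CPM in young saline macrophages and at 21.6, 23, 69.1 and 39.7 CPM in young ISRIB macrophages, so that 3 of the 4 ISRIB libraries lay below every saline library. In old mice it was at 132, 65.0, 47.5, 38.5 and 33.5 CPM with saline and at 23.8, 28.7, 53.4, 22.2 and 27.1 CPM with ISRIB, where 4 of 5 ISRIB libraries lay below every saline library. With both ages averaged the fall was 2.16-fold (log2 -1.11 ± 0.24 SE, adjusted p = 0.0341), and was the only member of the 8 called, against 0.830% of all genes. At the single ages the log2 changes were -1.20 ± 0.35 (adjusted p = 0.165) and -1.03 ± 0.33 SE (adjusted p = 0.344). The difference of the ISRIB effect between the ages was 0.17 ± 0.48 SE (adjusted p = 0.995).

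The averaged call of C4b was lost with all 39 libraries in 1 fit (adjusted p = 0.162). It was also lost when any 1 of 11 of the 19 libraries was left out: young saline replicates 1, 2 or 4, young ISRIB replicates 1, 2 or 4, old saline replicates 1 or 2, or old ISRIB replicates 1, 2 or 5 (adjusted p up to 0.0983). Its r with the classical monocyte list was 0.68 over the 19 libraries and 0.60 about the group means, and with the mature alveolar macrophage list -0.72 and -0.46. By the ranges given above, saline and ISRIB libraries overlapped for both lists, except for the mature alveolar macrophage list in young mice. Other lists included nonclassical monocytes (r of 0.67, and 0.31 about the group means), mesothelium (-0.57 and -0.30) and fibroblasts (-0.51 and -0.44). Differences of the lists were not tested.

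No other member passed the test for ISRIB. At the single ages none was called, where 0% of genes were called in young and 0% in old macrophages. An unadjusted p under 0.05 was found for 2 members and 1513 of 12171 genes in young macrophages. In old macrophages it was found for 6 members and 1112 genes. DESeq2 and limma voom also called no member, but DESeq2 gave no adjusted p for C4b and Cfb in old macrophages and could not call them. No member separated saline from ISRIB libraries, as 3.98% of genes did in young and 1.24% in old macrophages. Averaged over age, C1qa had a log2 change of -0.45 ± 0.13 SE (adjusted p = 0.0743), Cfp of -0.32 ± 0.09 (adjusted p = 0.0847) and Cfb of -0.73 ± 0.30 (adjusted p = 0.203). Cfp was called by DESeq2 (adjusted p = 0.0326). C3 had a log2 change of -0.12 ± 0.23 and C3ar1 of -0.01 ± 0.12 SE. The difference of ISRIB effects by age was not called for any member in macrophages, with 0% of genes called. No member had an unadjusted p under 0.05, against 621 of 12171 genes. None of the 20 other complement genes was called for ISRIB at either age or averaged, of which Cd93 had a log2 change of 0.46 ± 0.13 SE when averaged (adjusted p = 0.0682).

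The C1q chains varied together across macrophage libraries. Per kilobase, C1qa over C1qb averaged 0.990 ± 0.0369, 0.875 ± 0.0526, 0.926 ± 0.0708 and 0.927 ± 0.0525 in young saline, young ISRIB, old saline and old ISRIB macrophages (SD, n = 5, 4, 5 and 5), and C1qc over C1qb 0.366 ± 0.0113, 0.382 ± 0.0411, 0.363 ± 0.0409 and 0.400 ± 0.0145. The ratios were not fixed: C1qa over C1qb was 0.954 to 1.04 in young saline and 0.827 to 0.943 in young ISRIB libraries, which did not overlap, and C1qc over C1qb ran from 0.308 to 0.438 over the 19 libraries. These differences of ratios were not tested. Across the 19 macrophage libraries, Pearson r of log2 CPM was 0.98 for C1qa with C1qb, 0.97 for C1qa with C1qc and 0.98 for C1qb with C1qc, and 0.97, 0.97 and 0.96 about the group means. C3ar1 followed the chains less closely (r of 0.70 to 0.79). C3 went with Cfb, which joins it in the alternative convertase, at 0.62, or 0.78 about the group means, and old saline replicate 4 was highest for both. Libraries of 1 cell type share group structure and depth, and these r are descriptions of these libraries.

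**Figure D4:**
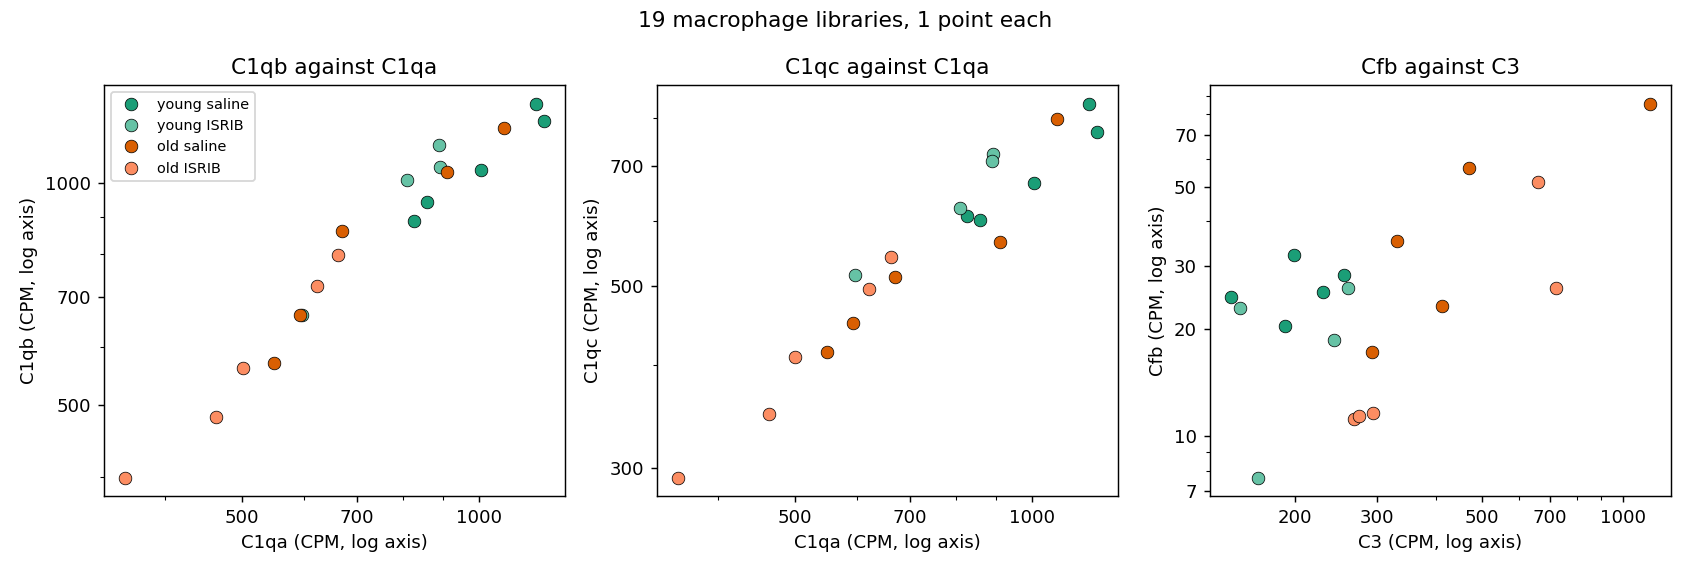
C1qb and C1qc against C1qa, and Cfb against C3, in CPM on log axes, with 1 point for each of the 19 macrophage libraries, coloured by group. The C1q chains lie along a line from old ISRIB replicate 3 (355 CPM of C1qa) to the young saline libraries, while Cfb and C3 scatter more widely, with old saline replicate 4 at the top right.

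Outside the 8 members, and among 9606 genes whose mean reached 5 CPM, genes near to the mean of the 3 C1q chains over the 19 macrophage libraries included Myo1e (r = 0.94), Anxa3 (0.92), Man2b1 (0.92) and Adam15 (0.91). For C3 they were Lyz2, the lysozyme of macrophages (0.92), Rilpl2 (0.90) and Fth1, the ferritin heavy chain (0.89). For C4b they were Hnrnpm (0.89), Fcna, the gene of ficolin A, a recognition protein of the lectin pathway (0.89), and Cbr2 (0.87). Cfb was nearest to Agtrap (0.91), Hp, the gene of haptoglobin (0.90), and Txn1 (0.89). Cfp was nearest to Atp5c1 (0.90), Pilra (0.84) and Ccdc86 (0.84), and C3ar1 had r = 0.89 with Nckap1l and with Ly86.

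In monocytes no member was called in any comparison. In saline mice the C1q chains had higher means in old than in young monocytes, at low levels. C1qc was at 3.27, 0.556, 0.345, 0.00 and 0.248 CPM in young saline and at 2.01, 1.94, 14.5, 9.09 and 1.56 CPM in old saline monocytes, where replicates 3 and 4 stood highest and the ranges overlapped. C1qb was at 11.2, 2.00, 2.88, 9.14 and 3.34 CPM in young and at 16.6, 4.94, 38, 27.6 and 6.38 CPM in old saline monocytes, again highest in replicates 3 and 4. The log2 change was 2.6 ± 0.72 SE for C1qc (adjusted p = 0.232) and 1.73 ± 0.52 SE for C1qb (adjusted p = 0.278). Without young saline monocyte replicate 1 the change of C1qc was 4.14 ± 0.75 SE and passed the test (adjusted p = 0.0474), and without old saline replicate 3 it was 1.95 (adjusted p = 0.458). DESeq2 called C1qc (adjusted p = 0.0293), as did edgeR with all 39 libraries in 1 fit (adjusted p = 0.0351). Of the 8 members, 5 had an unadjusted p under 0.05, as did 1072 of the 12170 genes tested. By adjusted p, 0.0247% of all genes were called. Cfb was the only member whose libraries did not overlap, at 1.24 to 3.80 CPM in young and 3.93 to 9.94 CPM in old saline monocytes, as in 1.50% of all genes (log2 1.18 ± 0.40 SE, adjusted p = 0.345).

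In ISRIB monocytes C1qc had a log2 change with age of -0.17 ± 0.65 SE, with 0% of genes called. No member had an unadjusted p under 0.05 there, against 803 of 12170 genes. Averaged over treatment, where 0.123% of genes were called, C1qb changed by 1.18 ± 0.36 SE (adjusted p = 0.282). An unadjusted p under 0.05 was found for 4 members and for 1003 of 12170 genes. ISRIB effects in monocytes gave 0% of genes called in young mice, in old mice, averaged over age and for their difference by age. In each, 2 members had an unadjusted p under 0.05. So did 809, 918, 911 and 865 of 12170 genes in these comparisons, in that order. DESeq2 and limma voom called no member in these or in the 2 age comparisons of this paragraph. For the difference by age, DESeq2 gave no adjusted p for C1qa and C1qc, the 2 such members, and could not call them. In old monocytes Cfp had a log2 change of -0.56 ± 0.20 SE with ISRIB (adjusted p = 0.520) and C3 of -0.49 ± 0.17 SE (adjusted p = 0.509). Over the 20 monocyte libraries C3 and Cfp followed each other (r = 0.77) and the classical monocyte list (r of 0.79 and 0.80), which summed to 5172 to 9372 CPM in old saline and 4181 to 5174 CPM in old ISRIB monocytes. They followed a list of 8 neutrophil markers as closely, with r of 0.76 for C3 and 0.80 for Cfp, and 0.79 and 0.88 about the group means. That list summed to 99.6 to 391, 114 to 262, 106 to 271 and 126 to 170 CPM in young saline, young ISRIB, old saline and old ISRIB monocytes, with Ly6g at 0 in young ISRIB. Further lists ran opposite to C3 and Cfp. Their r was -0.70 and -0.60 with T and NK cell markers and -0.75 and -0.65 with dendritic cell markers. It was -0.55 and -0.70 with nonclassical monocyte and -0.55 and -0.71 with mature alveolar macrophage markers. The part of these lists in the C3 and Cfp values was not tested. None of the 17 other complement genes tested was called in monocytes.

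The age effect differed between macrophages and monocytes for 2 members when averaged over saline and ISRIB. C3 rose more in macrophages (difference of log2 changes 1.29 ± 0.28 SE, adjusted p = 0.0138; -0.05 ± 0.12 SE in monocytes), and C1qb differed in the other direction (-1.70 ± 0.38 SE, adjusted p = 0.0186). These 2 of 8, 1 higher and 1 lower, stand beside 0.743% of all genes, 0.449% higher and 0.294% lower. C1qc had a difference of -1.66 ± 0.43 SE (adjusted p = 0.0550, and 0.0460 with DESeq2) and C1qa of -1.0 ± 0.43 SE (adjusted p = 0.323). Without young saline monocyte replicate 1 the difference of C1qc was -2.46 (adjusted p = 0.00402). It also passed the test without young ISRIB monocyte replicate 5, old saline monocyte replicate 1, 2 or 5, or replicate 1 of the young ISRIB, old saline or old ISRIB macrophages, and in the other 31 of 39 cases it did not (adjusted p up to 0.115). The calls of C3 and C1qb remained with each of the 39 libraries left out. That of C1qb was lost with limma voom (adjusted p = 0.105) and without the 3 macrophage libraries highest in B cell and plasma cell markers, all from old mice (adjusted p = 0.0985). Of 23 other complement genes, 22 were not called.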

How the data were processed

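RNA was sequenced from 39 libraries of sorted mouse lung cells, made from 3 ng of total RNA with polyA selection, per the labels' protocols. The submitters' processing notes name bcl2fastq 2.19.1, FastQC, Trimmomatic 0.36, STAR 2.6.0, HTSeq 0.11.2 and mm10, with no strand or multi-mapping setting. The authors deposited raw read counts for 43430 Ensembl genes, per the file headers; 42546 had a symbol in GENCODE vM21, and 0 columns belonged to no sample. Totals of 4595331 to 16056708 counts set the precision of low genes: 1 count is a small part of C3 but a large part of C1qa in monocytes. Over 76 pairs of libraries within a group the lowest chi-square per degree of freedom was 7.04, so none was a duplicate.

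The main test was edgeR's quasi-likelihood F test (edgeR 4.0.16, R 4.3.3; TMM, filterByExpr with minimum count 10 and minimum total 15, Benjamini-Hochberg adjustment over all genes tested, called under 0.05). Macrophages (12171 genes) and monocytes (12170) were fitted separately and the 39 libraries together (13587) for contrasts between cell types, with 1 mean per group and no covariate, in 19 contrasts. Levels are CPM scaled by TMM within cell type. The members, the 46 other complement genes, the marker lists and the motifs were chosen with earlier results of these data known. The rule for named genes was the 8 members, any listed complement gene that was called, and, by Pearson r of log2 CPM (prior count 2), the 5 nearest genes to the C1q chains and the 3 nearest to each other member among genes of at least 5 CPM. Alternatives were DESeq2 1.42.0, limma voom 3.58.1, DESeq2's size factors, no filter, a replicate block, other sets of libraries in the fit and each library left out. Leaving out 3 macrophage libraries with high B cell markers, or the shallowest and the deepest library, was chosen after seeing the data. The edgeR step was tested on simulated data. The labels do not say whether replicate numbers pair libraries of different groups, and the main fits used no pairing. Promoter windows came from RefSeq, GRCm38.p6, and matched 5 of 8 members. Some genes that this rule selects are not reported here.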

Additional observations from a re-analysis of the deposited data

Results flagged for a closer look

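In 4 of 64 groups of a member's levels, 1 library lay farther from the others than a range test at the 95% level allows; chance flags about 1 group in 20, which is close to this number. C3 in old saline macrophages was highest in replicate 4, at 1140 CPM (8201 counts), with the next library at 469 CPM. C4b in old ISRIB macrophages was highest in replicate 3, at 53.4 CPM (441 counts), with the next at 28.7 CPM. In young saline monocytes, replicate 1 was highest for both C1qc, at 3.27 CPM (31 counts) against 0.556 CPM for the next, and C3ar1, at 7.71 CPM (73 counts) against 4.37 CPM.

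The effect of age differed between macrophages and monocytes by the test of that difference for C3, with 1.29 on the log2 scale, and for C1qb, with -1.70.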

How the results depend on the processing

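Direction was followed only for member values with an unadjusted p under 0.05 in the main test, and smaller changes were not counted. None of the values followed changed direction, over 2257 with 1 library left out and 476 under another setting. Of these, 2202 and 438 also stayed on the same side of the threshold. All 64 group means moved by less than 1 SD with library totals in place of TMM. DESeq2 gave no adjusted p for C4b and Cfb in the ISRIB contrast of old macrophages or for C1qa and C1qc in the monocyte difference by age. The number of the 8 members called changed as follows. For age in saline macrophages (1), it was 0 with limma voom, 3 without a filter on low counts and 0 to 1 with a library left out. For age in ISRIB macrophages (0), it was 5 without a filter and 0 to 2 with a library left out. For age in macrophages averaged over treatment (4), it was 1 with all 39 libraries in 1 fit and 1 without the libraries highest in B cell and plasma cell markers. For ISRIB in young macrophages (0), it was 1 without a filter and 0 to 1 with a library left out, and for ISRIB in old macrophages (0), 5 without a filter. For ISRIB in macrophages averaged over age (1), it was 2 with DESeq2, 6 without a filter, 0 with all 39 libraries in 1 fit and 0 to 3 with a library left out. For age in saline monocytes (0), it was 1 with DESeq2, 1 with all 39 libraries and 0 to 1 with a library left out. For the difference of age effects between cell types (2), it was 1 with limma voom, 4 without a filter and 1 without the libraries highest in B cell and plasma cell markers. The cause of these changes was not tested. With the replicate block, 1 member (C3ar1) was called for age in ISRIB macrophages and 2 (C1qa and C4b) for ISRIB averaged over age, C3ar1 was also called for age averaged over treatment (adjusted p = 0.00363) and Cfp between cell types in young ISRIB mice (adjusted p = 0.0380), and other counts stayed within 1.5 times. Libraries of the same number had a mean r of 0.00 in macrophages (27 pairs) and -0.01 in monocytes (30 pairs). A mean over pairs cannot decide whether the numbers are a pairing, and the labels do not say. With the replicate block, 343 genes were called for ISRIB in macrophages averaged over age, against 101 in the main fit. Low counts limit the C1q chains, C4b, Cfb and C3ar1 in monocytes.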
